A study of Mus musculus with 2 samples.

Results

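The genes described here encode the metalloproteinases that cut the extracellular matrix and the cell surface, and the inhibitors that hold them in check. They comprise matrix metalloproteinases (MMPs), ADAMs, ADAMTS proteases, ADAMTS-like proteins and tissue inhibitors of metalloproteinases (TIMPs). Members were chosen by symbol alone, from probe sets annotated with exactly 1 gene symbol of these families. This gave 70 genes and 124 probe sets, out of 18193 genes and 45037 non-control probe sets in all. Where a gene has several probe sets, the brightest on average stands for it. Of 85 mouse RefSeq symbols that match, the other 15, among them Mmp15, Mmp28 and Adamts2, were not analysed here.

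The cells were ATDC5, a mouse line that can be driven towards cartilage, grown without serum and then given cycloheximide (CHX) at 10 µg/ml for 30 min to stop protein synthesis. The CHX+PBS group next received PBS for 30 min as control, and the CHX+Nell-1 group recombinant human Nell-1, a secreted bone-forming glycoprotein, at 100 ng/ml for 30 min. Both groups therefore carry CHX, and neither shows the cells without it. The stated aim was to find genes that respond to Nell-1 without new protein being made. Each group is 1 Affymetrix array, so every difference below compares 2 RNA samples, has no replicate check and was not tested.

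MMPs are secreted or membrane-bound zinc proteases, made as inactive precursors, and TIMPs block them by binding the active site. ADAMs are membrane proteins, many of which release growth factors and receptors from the cell surface. ADAMTS proteases are secreted, and several cut aggrecan, the main proteoglycan of cartilage. Several MMP genes are classical targets of the immediate-early AP-1 factors, which bind a short element just upstream of the start site.

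The values are MAS5 signals, linear intensities that summarise each probe set. Signals of different probe sets depend on the probes as well as on the RNA, so they are given gene by gene and not ranked as transcript levels. The median of the mean signal over all non-control probe sets was 64.3, and "above the median" below refers to it. Differences are log2 ratios, Nell-1 divided by PBS, and 1.5-fold is the filter that the submitters state. All probe sets were sorted by mean signal into 10 bins of equal size. The robust SD is the spread of log2 ratios over the bin that holds a probe set. It ran from 0.21 in the brightest bin to 2.23 in bin 3 from the bottom, and it mixes noise with real differences.

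For the array pair as a whole, both signal columns had a 2% trimmed mean of 500.0. All 24 poly-A spike-in probe sets were lower under Nell-1, by a median log2 ratio of -0.49, and so were all 18 hybridisation spike-ins, by -0.18. Of the chondrocyte markers, 7 of 12 were above the median, among them Sox9 (3375 under PBS and 2577 under Nell-1), Col2a1 (909 and 1206), Sox6 (208 and 338) and Acan (176 and 293), while Comp (28.5 and 6.35) and Col10a1 (8.38 and 4.02) were below it. Of these 7, 2 were at least 1.5-fold higher, Sox6 and Acan, and 0 lower, against 4.56% and 7.53% of all genes above the median. In the bin that holds these 2 genes, 7.82% of probe sets were at least 1.5-fold higher. Nothing is read from a count of 2. The median log2 ratio of the 7 was 0.13, and that of all genes above the median -0.03. The summed signal of the list, in which Sox9 weighs most, was 6070 under PBS and 5734 under Nell-1. Above the median lay 5 of 7 macrophage and haematopoietic markers (summed signal 685 and 640.3), but not Ptprc (3.61 and 26.7) or Itgam (4.13 and 15.1). The same held for 1 of 7 germ cell markers (238 and 226) and 3 of 6 neural markers (991 and 1288). No listed marker was at exactly 0.

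Promoter sequences are shown because most of a run of MMP genes held a combination of motifs that most other members lacked. The 120 bases before the annotated start site are given 5′ to 3′ for 7 genes, from RefSeq on GRCm38.p6. Capitals mark the AP-1 element TGAGTCA, the TATA box TATAAA and the GC box GGGCGG, each searched on both strands. Mmp10 (chr9:7502222-7502341, plus strand), Mmp3 (chr9:7445702-7445821, plus strand) and Mmp13 (chr9:7272394-7272513, plus strand) encode stromelysins and a collagenase.
Mmp10: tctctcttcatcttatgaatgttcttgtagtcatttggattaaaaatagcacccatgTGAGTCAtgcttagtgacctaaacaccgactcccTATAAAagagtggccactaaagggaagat
Mmp3: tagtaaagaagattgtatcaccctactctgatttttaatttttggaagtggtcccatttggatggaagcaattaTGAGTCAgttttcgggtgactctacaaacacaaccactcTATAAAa
Mmp13: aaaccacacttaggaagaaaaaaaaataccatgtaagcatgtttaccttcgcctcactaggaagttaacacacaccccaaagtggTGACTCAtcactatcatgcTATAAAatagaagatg

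The next 4 belong to members with signals above the median. They are Mmp14 (chr14:54431478-54431597, plus strand), Timp2 (chr11:118355412-118355531, minus strand), Adam17 (chr12:21373633-21373752, minus strand) and Adamtsl2 (chr2:27079259-27079378, plus strand).
Mmp14: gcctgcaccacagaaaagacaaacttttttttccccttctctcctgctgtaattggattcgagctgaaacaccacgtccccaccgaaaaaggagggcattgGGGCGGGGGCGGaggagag
Timp2: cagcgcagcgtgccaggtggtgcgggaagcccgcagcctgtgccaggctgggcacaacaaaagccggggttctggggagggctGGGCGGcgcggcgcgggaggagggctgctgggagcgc
Adam17: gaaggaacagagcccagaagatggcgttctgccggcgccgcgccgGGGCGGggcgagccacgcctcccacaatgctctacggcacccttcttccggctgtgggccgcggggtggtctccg
Adamtsl2: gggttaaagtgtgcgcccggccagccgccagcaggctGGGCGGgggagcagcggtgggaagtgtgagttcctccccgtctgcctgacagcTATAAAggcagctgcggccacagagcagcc

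Windows of 300 bases around the start site, 250 of them upstream, were given for 41 of the 70 members, 46 windows in all. The AP-1 element lay in 9 of the 46 (19.6%), against 5.2% of all 32851 promoter windows. Of these 9, 7 were MMP genes, and the other two were Adam19 and Adam1b, the latter with its match after the start site. All 7 MMP windows also held a TATA box, a combination found in 0.941% of all windows. The GC box was in 21 of 46 (45.7%), against 35.7%. The cyclic AMP element TGACGTCA and the EGR element GCGTGGGCG, whose last bases can overlap a GC box, were in none of the 46, against 1.79% and 0.612% of all windows. A match is a string of letters and shows no binding.

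The AP-1 elements sat between 35 bases (Mmp13) and 93 bases (Mmp1b) before the start site in these 7 MMP genes. They are neighbours. Mmp13, Mmp12, Mmp1b, Mmp3, Mmp1a, Mmp10, Mmp8, Mmp27, Mmp20 and Mmp7 follow each other on chromosome 9 with no other protein-coding gene between them in the RefSeq table. Of this run of 10, 9 were measured, 7 of them with an AP-1 element and 9 with a match to the TATA box. The TATA matches were not all placed alike. Those of Mmp10 and Mmp1a and the nearer of Mmp7 began 29, 28 and 26 bases before the start site. Those of Mmp1b, Mmp13 and Mmp3 began 49, 16 and 7 bases before it. That of Mmp12 lay after the start site, and that of Mmp20 began 58 bases before it. The only one of Mmp8 was on the opposite strand, 3 bases before the start site.

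**Figure D1:**
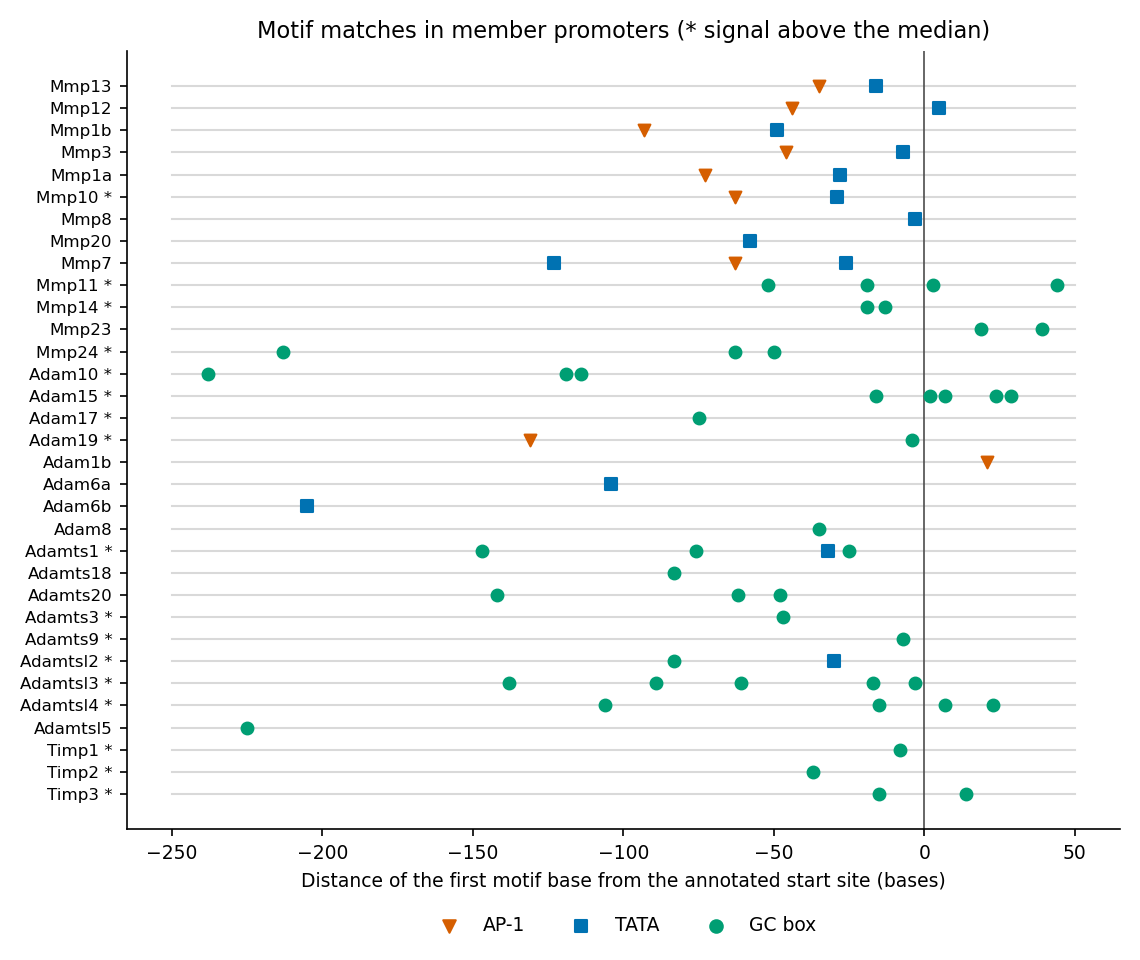
Matches to the AP-1 element, the TATA box and the GC box by distance in bases from the annotated start site (0, vertical line), for every measured member with a match; windows of a gene with several start sites share a line. The 9 chromosome 9 MMP genes at the top hold matches to the TATA box, at differing distances, and, in 7 of 9, an AP-1 element. GC boxes lie mainly in members marked * as above the median signal.

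The chromosome 9 run gave little signal in either group. Mmp10, encoding stromelysin 2, measured 61.2 under PBS and 73.8 under Nell-1 and was the 1 gene of 9 above the median, by a narrow margin. It lay above only through its Nell-1 signal, the PBS signal being below the median. Mmp7, encoding matrilysin, measured 67.8 and 48.4, and Mmp3, encoding stromelysin 1, measured 44.0 and 25.3. The collagenase genes all lay below the median. Mmp13 measured 15.9 and 1.34, Mmp8 20.6 and 3.03, Mmp1a 17.2 and 17.4, and Mmp1b, a close copy of Mmp1a, 8.48 and 20.5. The macrophage elastase gene Mmp12 (2.30 and 4.39) and the enamel protease gene Mmp20 (2.94 and 1.30) completed the run. Thus 6 of the 7 genes with an AP-1 element had signals below the median. Of all genes below the median, 67.3% passed 1.5-fold in one direction or the other, so the ratios of these genes carry no direction here.

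The split by signal is a description, since signals also depend on the probes. The 21 windows of members above the median had a median of 24 CpG dinucleotides in 300 bases, and the 25 windows of members below it a median of 2. Over all measured genes split the same way the medians were 20 and 6, so the direction is shared by genes at large. A GC box was in 76.2% and 20% of the members' windows, against 62.5% and 32.1% over all measured genes. A TATA box was in 14.3% and 40%, against 7.11% and 15%, and in 13.6% of all windows. Outside the chromosome 9 run, 2 of the 15 dim members' windows held one (13.3%).

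Of the 70 members, 35 (50%) had a signal above the median, against 63.8% of all genes. Among these 35, 3 were at least 1.5-fold higher with Nell-1 (8.57%, against 4.56% of 11600 genes above the median) and 4 were at least 1.5-fold lower (11.4%, against 7.53%). The 3 higher were Adam11, Adam17 and Adamtsl2, and the 4 lower Mmp14, Adam33, Adamts4 and Adamts15. In either direction it was 7 of 35 (20%), against 12.1%, so the shares differ from the background by a few genes. Adamtsl2 passed the filter on its Nell-1 signal alone and Adamts15 on its PBS signal alone. Mmp10, short of 1.5-fold, also passed on its Nell-1 signal alone. With both signals required above the median, 2 members were higher and 3 lower. At 2-fold 1 was lower, Adam33, against 2.33% of genes, and 1 higher, Adamtsl2, against 0.784%, from which nothing is read given how it passed. Of the 60 member probe sets above the median, 5 were at least 1.5-fold higher and 7 lower. Among the higher, that of Adamtsl2 and the second of Adamts10 passed the filter on the Nell-1 signal alone. Among the lower, those of Adamts15 and Adam15 passed it on the PBS signal alone. Over all 22519 probe sets above the median, 5.97% were higher and 8.48% lower. The median log2 ratio of the 35 was 0.06, and that of all genes above the median -0.03. Of the 35, 21 had a ratio above 0 and 14 below, against 45.8% above and 54.2% below over all genes. With no signal filter 12 of 70 members were higher and 19 lower, against 13.1% and 19% of all genes. The 35 dimmer members passed 1.5-fold in 68.6% of cases, close to the 67.3% of all dim genes.

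**Figure D2:**
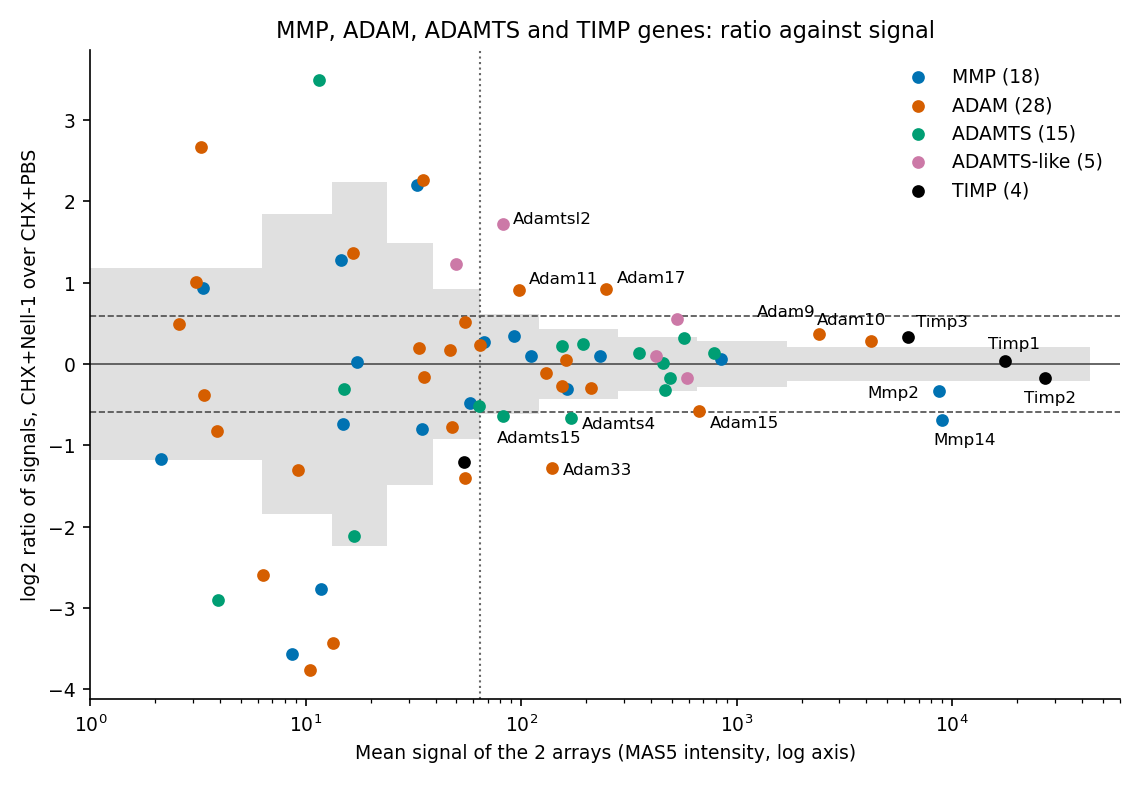
Log2 ratio, Nell-1 divided by PBS, against the mean signal of both arrays (log axis), 1 point per member, coloured by family; grey bands are plus and minus the robust SD of all probe sets at that signal, dashed lines mark 1.5-fold and the dotted line the median signal of 64.3. Ratios spread widely left of the dotted line, and right of it 7 of 35 members lie beyond the dashed lines, Mmp14 among them far to the right and outside its narrow band.

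MMP14, a membrane-anchored collagenase, activates the precursor of the gelatinase MMP2 on the cell surface, and TIMP2 acts as the bridge between them. These 3 genes, grouped after their values were seen, were lower on the CHX+Nell-1 array on all 10 of their probe sets above the median. Their log2 ratios ran from -0.69 to -0.17, with a median of -0.36. Of all 22519 probe sets above the median, 12014 had a ratio below 0. Given how the 3 genes were grouped, nothing is read from the count of 10.

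Mmp14 had 11019 under PBS and 6852 under Nell-1 on its brightest probe set, 1.61-fold lower, with a log2 ratio of -0.69. Its other probe sets gave 3527 and 2733 (-0.37) and 1639.8 and 1285 (-0.35). All of them were lower with Nell-1, but 1 of 3 reached 1.5-fold, and the mean over probe sets was -0.47. In bulk RNA, fewer cells of a type and less RNA per cell cannot be told apart. In the brightest bin, 0.777% of probe sets were at least 1.5-fold lower and 1.33% were at least 1.5-fold higher. The brightest Mmp14 probe set was 1 of the 35 lower ones.

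Mmp2, encoding the gelatinase that digests denatured collagen and basement membrane, measured 9650 under PBS and 7660.4 under Nell-1, a log2 ratio of -0.33. Its second probe set measured 8921 and 7325, at -0.28. Both ratios were beyond the robust SD of 0.21 and short of 1.5-fold. The other gelatinase gene, Mmp9, was below the median on both probe sets, at 18.6 and 11.2 on the brighter.

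Timp2 gave 28515 under PBS and 25322 under Nell-1 on its brightest probe set, a log2 ratio of -0.17. The next 4 gave 22679 and 18351 (-0.31), 10326 and 7748 (-0.41), 4886 and 3477 (-0.49), and 1731 and 1317 (-0.39). All 5 were lower with Nell-1, and the brightest differed least. A sixth probe set, below the median, measured 17.4 and 21.2.

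The other inhibitor genes did not share this direction. Timp3, whose protein is held in the matrix and also inhibits ADAM17 and aggrecanases, was higher with Nell-1 on all 4 probe sets. They measured 5509.9 and 6942 (0.33), 5494 and 6773 (0.30), 2095 and 2721 (0.38), and 755 and 802 (0.09). Timp1, the inducible inhibitor, measured 17351 and 17740.2, a log2 ratio of 0.03. Timp4 was below the median, at 75.4 and 32.6 on one probe set and 2.78 and 42.0 on the other, which point opposite ways. None of the 3 inhibitor genes above the median reached 1.5-fold, and Timp2 and Timp3 differed in sign on every probe set above the median.

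The poly-A spike-ins, at a median of -0.49, and the 7 fibroblast and mesenchymal markers above the median, all lower at -0.55 to -0.14 under Nell-1, moved the same way as Mmp14, Mmp2 and Timp2. The summed signal of the 8 measured fibroblast markers was 174283 under PBS and 152581 under Nell-1. Over the brightest bin the median log2 ratio was -0.01. The part of the spike-in difference in these ratios was not tested.

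**Figure D3:**
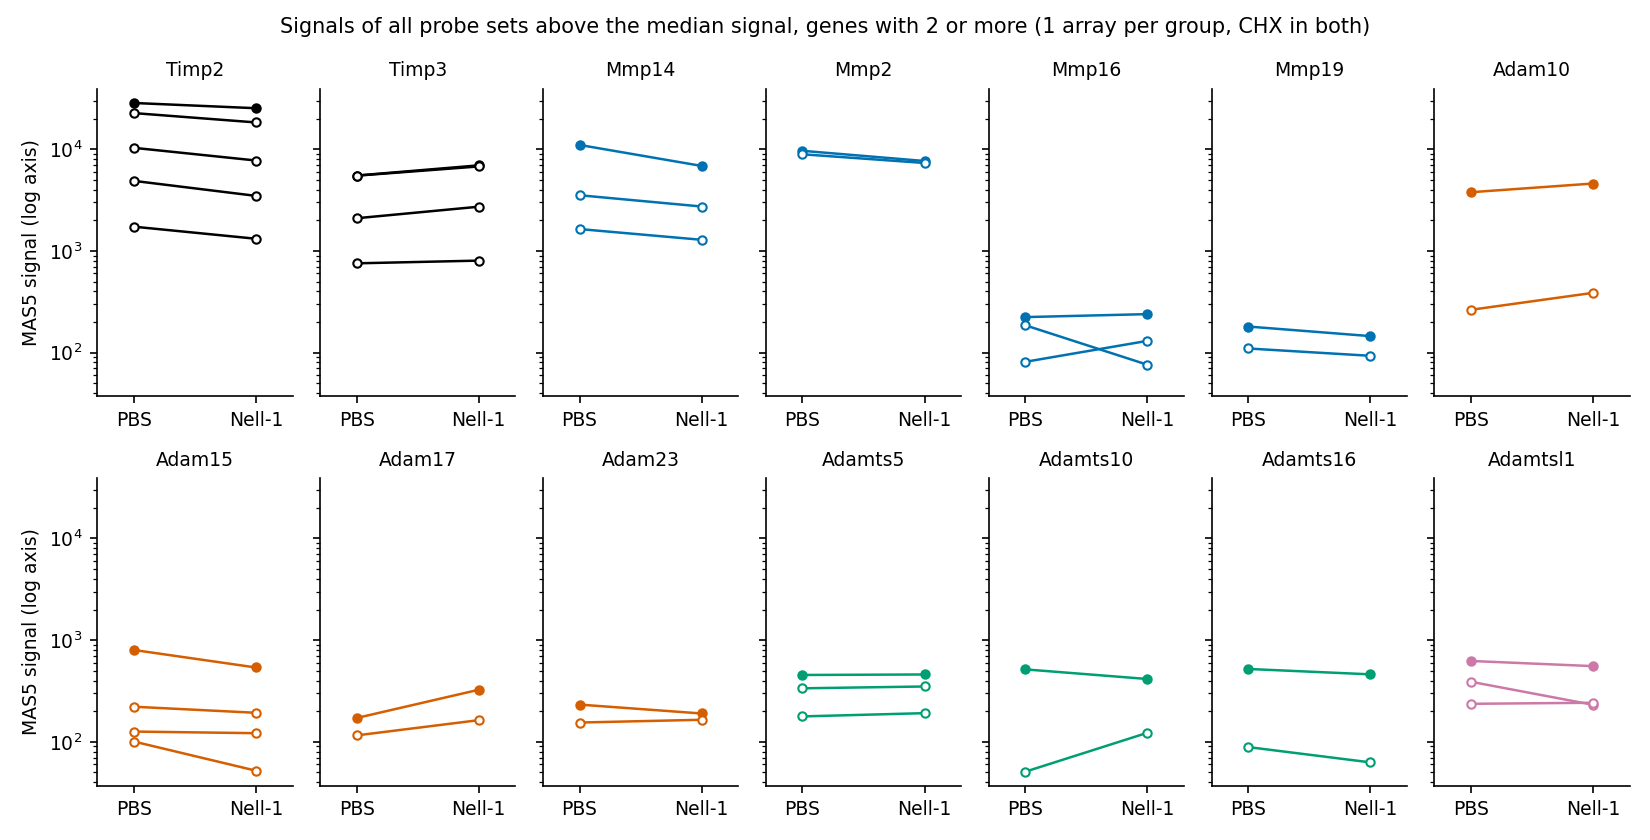
MAS5 signals (log axis) on the CHX+PBS and CHX+Nell-1 arrays for the 14 members that have 2 or more probe sets past the median; each line is 1 probe set, with the brightest filled. The Timp2, Mmp14 and Mmp2 lines all slope down and the Timp3, Adam10 and Adam17 lines all slope up, while the lines of Mmp16, Adamts10, Adam23 and Adamtsl1 disagree.

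Agreement between probe sets was counted for all members that allow it. Among 14 members that have 2 or more probe sets above the median, 10 had the same sign on all of them (71.4%), against 56.1% of 5195 such genes. Of 7 members with at least 3, the signs were the same in 5 (71.4%), against 40.3% of 2086. Lower on all were Mmp14, Mmp2, Mmp19, Timp2, Adam15 and Adamts16, and higher on all were Timp3, Adam10, Adam17 and Adamts5. The dimmest Adam15 probe set (101 and 52.0) and the second of Adamts16 (88.8 and 62.8) passed the filter only through their PBS signals. The second of Adamts10 passed only through its Nell-1 signal. The filter fixes the sign of such a probe set, so its sign is no sign of agreement. The shares over all genes used the same filter. Probe sets of a gene read the same 2 RNA samples, so agreement bears on measurement within this pair and not on the spread between cultures.

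The remaining MMP genes above the median differed little. Mmp11, encoding a stromelysin that is activated inside the cell, measured 833 under PBS and 866 under Nell-1 (0.06). Of the membrane-type genes, Mmp17 measured 81.4 and 104 (0.35) and Mmp24 107 and 115 (0.10). Mmp16, another activator of pro-MMP2, measured 223 and 239 (0.10) on its brightest probe set. The next measured 185 and 75.9 (-1.29) and 81.1 and 130.4 (0.69), so both pass 1.5-fold in opposite directions and no direction can be given. Mmp19 measured 180.3 and 145 (-0.31) and, on its second probe set, 109.7 and 92.9 (-0.24). Mmp23 was below the median, at 11.7 and 53.8.

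Among the catalytic somatic ADAMs, 7 of 9 were above the median, with 1 at least 1.5-fold higher, 1 lower and 5 neither. Adam17, encoding the main sheddase of TNF and of several EGF receptor ligands, measured 171 under PBS and 325 under Nell-1, 1.90-fold higher, with a log2 ratio of 0.92. Its second probe set measured 116 and 163 (0.50), short of 1.5-fold, and another, below the median, 41.6 and 50.5 (0.28). All 3 were higher with Nell-1. In the bin of signal that holds Adam17, 7.82% of probe sets were at least 1.5-fold higher.

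Adam10, the sheddase of Notch receptors and cadherins, measured 3778 and 4600.5 (0.28), and 264 and 387 (0.55) on its second probe set. Its other probe sets, far below the median, measured 10.2 and 9.16 (-0.15) and 8.93 and 6.64 (-0.43). Adam9, a related sheddase, measured 2101 and 2722 (0.37) on its 1 probe set. Both were higher than the robust SD of 0.21 at their signal and short of 1.5-fold.

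The other 4 catalytic ADAMs above the median had ratios below 0. Adam33, a gene of smooth muscle and mesenchymal cells, measured 197 under PBS and 81.1 under Nell-1, 2.42-fold lower, with a log2 ratio of -1.28. Its second probe set lay far below the median, at 8.93 and 13.6. In this bin of signal 11.7% of probe sets were at least 1.5-fold lower. Adam15, an adhesion-related ADAM, measured 801 and 538 (-0.57), just short of 1.5-fold, on a probe set of a type that can cross-hybridise. Its other probe sets measured 221 and 193 (-0.20), 126 and 122 (-0.05), and 101 and 52.0 (-0.95), and the one of them that is not shared between transcripts was that at -0.05. The Adam15 probe set at -0.95 passed the filter only through its PBS signal. Adam12, involved in muscle and fat development, measured 135 and 125 (-0.11), and Adam19, a sheddase of neuregulins, 169 and 140.2 (-0.27). Adam8 (58.9 and 69.2) and Adam28 (9.28 and 23.8) were below the median.

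The non-catalytic ADAMs, known for their roles in the nervous system, included Adam11 at 67.7 under PBS and 127 under Nell-1. It was 1.88-fold higher, at 0.91, in a bin of signal where 13.5% of probe sets were at least 1.5-fold higher. Below the median, its other probe set gave 31.4 and 40.7 (0.37). Adam23 measured 232 and 190 (-0.29) and 155 and 165 (0.09) on 2 probe sets of opposite sign. Adam22 measured 44.8 and 64.3, below the median.

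Reproductive ADAMs, which serve sperm maturation and fertilisation, were dim. Of 16, 15 lay below the median, with signals from 0.881 to 79.3 under PBS and from 1.43 to 57.9 under Nell-1. Adam7, known from the epididymis, had a signal above the median in 1 group, at 79.3 and 30.0. The 1 gene above the median was Adam4, at 159 and 164 (0.05). The germ cell markers were similar, with 1 of 7 above the median, Prm1, at 97.6 and 52.5. Several of these genes, such as Adam6a and Adam6b or Adam1a and Adam1b, are close copies whose probe sets may share RNA.

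**Figure D4:**
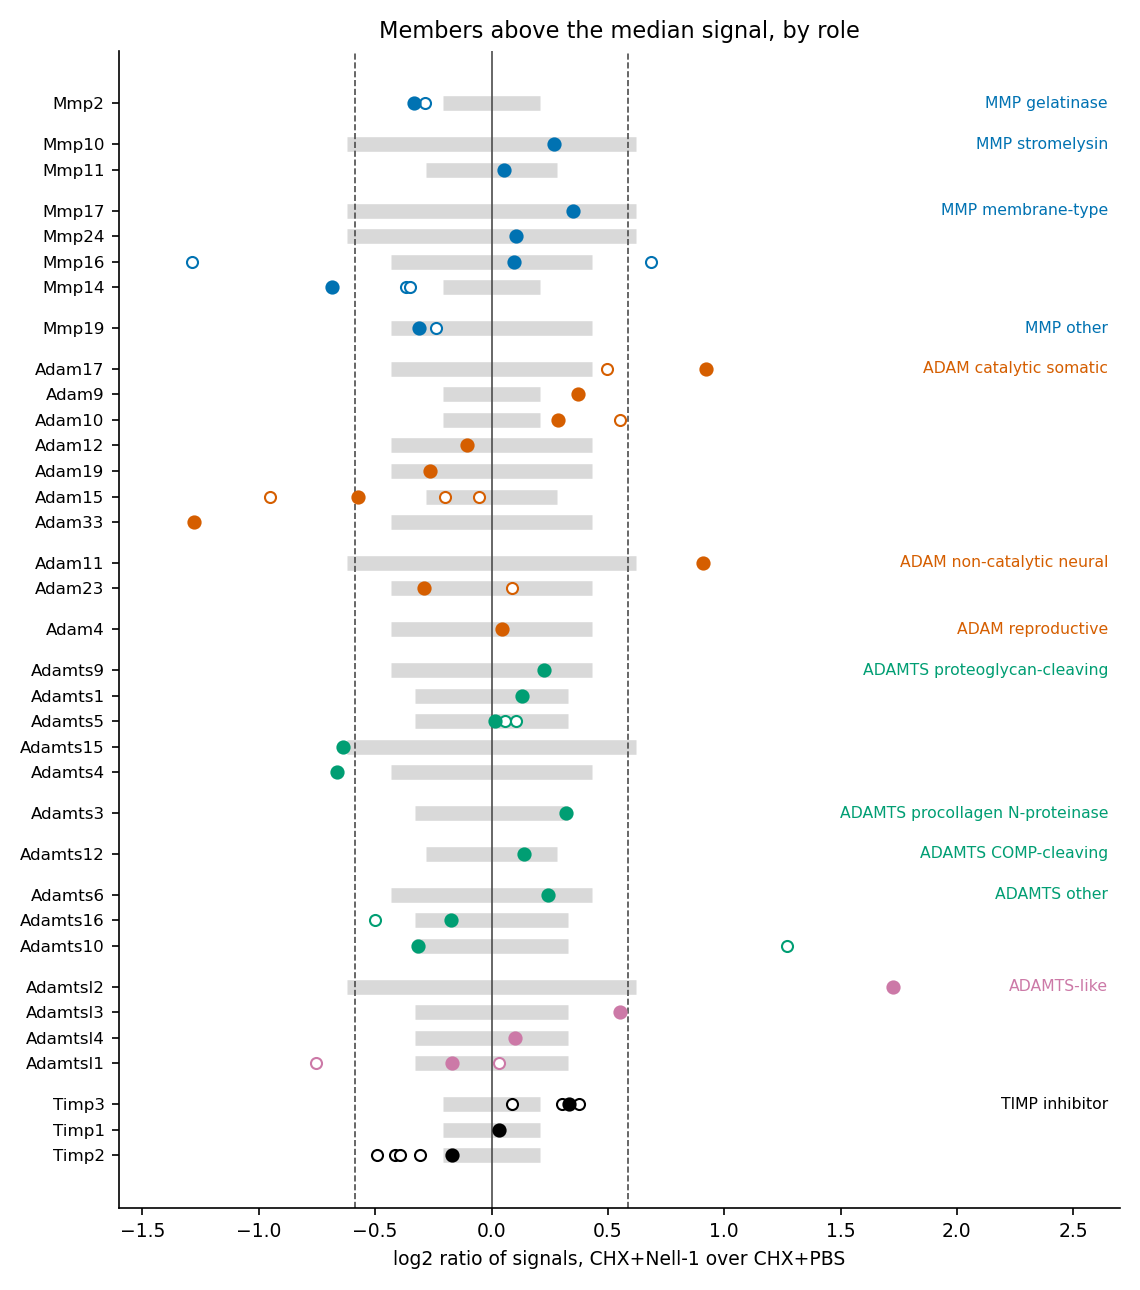
Log2 ratios of the 35 members above the median signal, ordered by role; filled points are the brightest probe set, open points the other probe sets above the median, grey bars plus and minus the robust SD at that signal, and dashed lines 1.5-fold. Adamtsl2 at 1.72 and Adam33 at -1.28 are the most distant filled points, and open points of Mmp16, Adamts10 and Adamtsl1 lie far from their filled points.

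The ADAMTS proteases that cut proteoglycans included 5 of 7 genes above the median, of which 2 were at least 1.5-fold lower and 0 higher, against 7.53% and 4.56% of all genes above the median. The count is of 2 genes, and 1 of them, Adamts15, passed the filter on its PBS signal alone and changes with the scaling. Adamts4, aggrecanase 1, measured 209 under PBS and 132 under Nell-1, 1.59-fold lower, with a log2 ratio of -0.67. Its second probe set lay below the median, at 5.04 and 6.17. Adamts15 measured 99.97 and 64.3 (-0.64), where 22.8% of probe sets in the same bin of signal were at least 1.5-fold lower. It passed the filter only through its PBS signal, the Nell-1 signal (64.258) being just below the median (64.261). It no longer reached 1.5-fold after quantile normalization (-0.51), loess (-0.53) or an added constant (-0.52).

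Adamts5, the main aggrecanase of mouse cartilage, measured 454 and 459.5 (0.02), 336 and 350.1 (0.06), and 178 and 191 (0.11). On these 3 probe sets above the median the 2 arrays differed by under 1.1-fold, which sets no bound for other cultures. Another probe set, far below the median, measured 19.8 and 1.60. Adamts1 measured 335 and 367 (0.13) and Adamts9 142 and 166 (0.22). Adamts8 and Adamts20 were below the median, at 16.6 and 13.4 and at 6.89 and 0.924.

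Acan, encoding the aggrecan core protein that these enzymes cut, measured 176 under PBS and 293 under Nell-1 on its 1 probe set, a log2 ratio of 0.74. Vcan, encoding the related proteoglycan versican, measured 107 and 104 (-0.04). In the bin of signal that holds Acan, 7.82% of probe sets were at least 1.5-fold higher. Where brightest, Adamts4 and Adamts15 lay on the opposite side of 0 from Acan, and Adamts1, Adamts5 and Adamts9 on the same side. These values come from 1 pair of arrays, and no relation to Acan is read from them.

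The other ADAMTS genes above the median stayed short of 1.5-fold where brightest. Adamts3, a procollagen N-proteinase that also activates VEGF-C, measured 506 and 632 (0.32). Adamts12, which cuts the cartilage protein COMP, measured 750.1 and 826 (0.14), and Adamts7, of the same kind, 74.5 and 52.2, just below the median. Adamts6 measured 178 and 210.5 (0.24). Adamts16 measured 521 and 461 (-0.18), and 88.8 and 62.8 (-0.50) on its second probe set, which passed the filter only through its PBS signal. Adamts10, linked to microfibrils, measured 516 and 415 (-0.31) and, on its second probe set, 50.8 and 123 (1.27), so its mean over probe sets turned to 0.48. That second probe set passed the filter only through its Nell-1 signal, so no direction is read from this mean. Adamts18 (27.2 and 6.27) and Adamts19 (1.87 and 21.1) were below the median.

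ADAMTS-like proteins lack the protease domain and bind to matrix microfibrils. Adamtsl2, whose product binds a latent TGF-beta binding protein, measured 38.1 under PBS and 126 under Nell-1 on its 1 probe set, 3.30-fold higher, with a log2 ratio of 1.72. It passed the filter only through its Nell-1 signal, the PBS signal being below the median, so the size of the fold is uncertain. In the same bin of signal 13.5% of probe sets were at least 1.5-fold higher. Adamtsl3 measured 429 and 628 (0.55), 1.47-fold higher, beyond the robust SD of 0.33. Adamtsl4, known from the fibres that hold the eye lens, measured 407 and 436 (0.10). Adamtsl1 measured 624 and 555 (-0.17), 389 and 231 (-0.75), and 236 and 242 (0.03), which disagree. Adamtsl5, below the median, measured 29.6 and 69.7.

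Genes around these families were taken from a list of activators, other proteases and substrates. Of 58 listed, 55 were measured and 42 were above the median. Of the 42, 1 was at least 1.5-fold higher and 3 lower, no more than the background shares of 4.56% and 7.53% would give. The median log2 ratio was -0.18, against -0.03 for all genes above the median. The 1 higher was Acan.

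The activators and regulators, 9 above the median, held none past 1.5-fold. Reck, a membrane-anchored inhibitor of MMPs, measured 310.0 under PBS and 213 under Nell-1 (-0.54). Rhbdf1, an iRhom that carries ADAM17 to the cell surface, measured 1441 and 1079 (-0.42), and Rhbdf2, the other iRhom, 125 and 136 (0.12). Lrp1, which clears several of these proteases from the cell surface, measured 2381 and 1993 (-0.26). Furin, which removes the propeptide of MMP14 and of ADAMs, measured 1372 and 1250.2 (-0.13).

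In the plasminogen system, Plat, encoding tissue plasminogen activator, measured 4686 under PBS and 2297 under Nell-1, 2.04-fold lower (-1.03). Its second probe set measured 59.8 and 130 in the opposite direction (1.11), and passed the filter only through its Nell-1 signal. Plau, encoding urokinase, measured 293 and 251 (-0.22), and its receptor gene Plaur 913 and 1007 (0.14).

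Among other proteases and inhibitors, 6 were above the median and none reached 1.5-fold on its brightest probe set. Ctsb, encoding the lysosomal protease cathepsin B, measured 5239 and 4009 (-0.39), Htra1, a secreted serine protease, 2033 and 1653 (-0.30), and Cst3, the cathepsin inhibitor cystatin C, 13479 and 11138 (-0.28). The other Ctsb probe sets above the median were at -0.21, -0.06 and 0.78. The last, at 64.1 and 110, was past 1.5-fold in the opposite direction. Its PBS signal was just below the median, so it passed the filter only through its Nell-1 signal. Of 8 matrix substrates above the median, Acan was at least 1.5-fold higher and Dcn, encoding decorin, lower, at 458 and 291 (-0.65). Col2a1 was at 0.41.

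Of the genes whose proteins ADAMs shed from membranes, 16 were above the median, with 1 at least 1.5-fold lower and none higher. It was Il6ra, the interleukin 6 receptor gene, at 298 under PBS and 155 under Nell-1 (-0.94), and its second probe set measured 106 and 103 (-0.04). Vcam1, an adhesion receptor, measured 180 and 122 (-0.56), with 2 further probe sets at 0.05 and 0.18. Cx3cl1, a membrane-bound chemokine, measured 762 and 521 (-0.55), and 143 and 13.6 (-3.40) on its second. That second probe set passed the filter only through its PBS signal, so the size of its fold is uncertain. The median of this list was -0.23, and that of the 7 catalytic somatic ADAMs above the median -0.11, with 3 above 0 and 4 below.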

How the data were processed

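Total RNA of ATDC5 cells, 1 sample per group, was measured on 1 Affymetrix mouse array each. The deposited values are intensities, linear MAS5 signals that the authors made with Affymetrix Expression Console, per the submitters' processing notes; its version is not given in the sources used here. The MAS5 method scales each array by 1 factor. Present and absent calls were not used here, and the number of arrays limits the precision.

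Columns were joined to groups by sample name. Of 45037 non-control probe sets, 34945 had 1 symbol, 932 several and 9160 none in the platform annotation. All 70 member symbols matched RefSeq (GRCm38.p6). Log2 ratios, counts at 1.5-fold and the robust SD (median absolute deviation, 10 bins of signal) were computed with python 3.11.15, numpy 2.4.6 and pandas 2.3.3. No test was run. Code was tested on simulated arrays.

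Members, gene lists and roles were chosen with earlier results of these data known. All members above the median signal are named, and below it members with a 1.5-fold difference and 1 signal above the median or of a role with no brighter member; other dim members were named after their values were seen. Related genes are the up to 3 per list with the largest ratios above the median, plus Furin, Rhbdf2 and Vcan, named after their values were seen, as were the markers named. Promoters were to be shown for members past 1.5-fold on all probe sets above the median (5 genes, 1 probe set each, of which Adamtsl2 had a sequence in the table used); the other 6 were added after the values were seen. Alternatives were 3 rescalings (median centring, quantile normalization, loess), an added constant or floor of 17.9 (the 25th percentile of the mean signal), other signal filters, other probe sets per gene and a 2-fold threshold.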

Additional observations from a re-analysis of the deposited data

How the results depend on the processing

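No paired analysis was possible because 1 array stands for each condition, and for the same reason no replicate could be left out. The counts at 1.5-fold depended on the signal filter and on the threshold. With no signal filter 12 members were higher and 19 lower, and 4 related genes were higher and 8 lower. With a filter at the 75th percentile (431.6) 0 members were higher and 1 lower, Mmp14, and 0 related genes were higher and 1 lower. At 2-fold 1 member was higher, Adamtsl2, and 1 lower, Adam33, and 0 related genes were higher and 1 lower. The other alternatives, namely 3 rescalings, the added constant, the floor, both signals above the median and the 2 other choices of probe set, gave 2 or 3 members higher and 3 or 4 lower. The median log2 ratio of members stayed between 0.02 and 0.11. Of 35 members above the median, 33 kept their sign under all alternatives for single genes; the exceptions were Adamts10 and Mmp16, both when probe sets were averaged. Of the 7 past 1.5-fold, 5 stayed past it, Adamts15 did not in 3 alternatives, and Mmp14 did not as a mean over probe sets (-0.47). Adam33 and Adamtsl4 have no unshared probe set above the median, so that alternative gave them no value.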

Other observations

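Adam9 lies at the end of a run of 5 neighbouring ADAM genes on chromosome 8, in the order Adam18, Adam3, Adam5, Adam32 and Adam9, with no other protein-coding gene between them in the RefSeq table. Adam9 measured 2101 with PBS and 2722 with Nell-1. Its 4 neighbours, known from sperm and testis, were all below the median, with Adam5 (60.1 and 35.0) and Adam32 (31.1 and 35.6) nearest to it and Adam18 at 19.4 and 1.43. On chromosome 16, Adamts1 and Adamts5, both of the proteoglycan-cleaving kind, are neighbours and were both above the median, at 335 and 367 and at 454 and 459.5. The other neighbouring pair of that kind, on chromosome 9, was split, with Adamts15 above the median (99.97 and 64.3) and Adamts8 below it (16.6 and 13.4).

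Each of Timp1, Timp3 and Timp4 lies inside a synapsin gene in the RefSeq table, a family otherwise known from nerve terminals. The host genes measured 212 with PBS and 165 with Nell-1 for Syn1, 60.7 and 56.1 for Syn3, and 96.1 and 60.9 for Syn2, the last read on the brightest probe set. Timp1 and Timp3 were at 0.03 and 0.33, and their hosts at -0.37 and -0.11. Timp4, below the median, was at -1.21 on its brighter probe set and at 3.92 on the other, so it has no direction here, and its host was at -0.66. A further 5 probe sets carry the symbol of a member together with that of another gene and were left out of all values.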
